A study of Mus musculus with 37 samples.

Results

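The genes of the proteasome are described here: 47 of the 23170 genes listed in the deposited tables, chosen by name alone (gene symbols that begin with Psma, Psmb, Psmc, Psmd, Psme, Psmf or Psmg and a digit). They comprise the 14 ring subunits of the 20S core, 17 subunits of the 19S regulatory particle, 4 activators, 1 inhibitor, 7 assembly chaperones and 2 tissue-specific 20S subunits. The remaining 2 genes were matched by name and given no role: Psmc3ip, which only shares the naming pattern, and Psme2b, a near-identical copy of Psme2. The inducible catalytic subunits were not analysed here. Of the 47 genes, 46 had enough counts to be tested, among 12774 tested genes in all. The exception was Psmb11, a subunit of the thymus, which had 1 count in 1 library and 0 in the other 11.

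The proteasome is the large protease that degrades proteins tagged with ubiquitin. Its 20S core is a barrel of alpha rings, which gate the entry, and beta rings, which hold the active sites; the 19S particle on its ends recognises ubiquitin, removes it and unfolds the substrate, and chaperones assemble both. Other caps, the 11S activators, open the core without using ubiquitin, and the Psme1 and Psme2 proteins form the cap that interferon is known to induce.

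The cells were macrophages grown from mouse bone marrow, either WT (wild type) or KO (knockout); the gene removed was Arid1a, a subunit of the BAF chromatin remodelling complex, in a study of osteoclast formation. Their total RNA was sequenced. Cells of both genotypes were put under osteoclast differentiation, and RNA was taken at day 0, day 2 and day 4, which gave 6 groups of 2 libraries each. The labels name no strain, no age, no Cre line and no differentiation factor, and they do not say whether the 2 libraries of a group came from separate animals or cultures, so p-values measure the spread between these libraries, which may be technical. The design text names osteoblasts, and the title and sample labels name osteoclasts; the labels were followed.

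Libraries held between 16282164 and 18608353 counts. Arid1a, the targeted gene, was measured in CPM (counts scaled to library size). WT libraries held 242 and 197 CPM at day 0, 169 and 175 CPM at day 2, and 164 and 135 CPM at day 4. KO libraries held 94.6 and 104 CPM, then 118 and 117 CPM, and then 84.7 and 98.0 CPM, so that reads remained in KO. The log2 fold change of KO against WT was -1.15 at day 0, -0.54 at day 2 and -0.71 at day 4. In the edgeR test described below, its adjusted p was 0.0141, 0.0613 and 0.00793 on these days. Over 12 osteoclast markers the summed level went from a mean of 269 CPM at day 0 to 18311 CPM at day 4 in WT, and in KO from 263 CPM to 4926 CPM in replicate 1 and 1893 CPM in replicate 2 of day 4. Over 8 macrophage markers it went from 53885 CPM to 2931 CPM in WT and from 13537 CPM to 4759 CPM in KO; most of that WT day 0 sum was Lyz2, at 38669 CPM in WT and 42.8 CPM in KO at day 0. Summed markers of T and NK cells, B cells, erythroid cells and dendritic cells stayed at or below 4.00 CPM in every library, and neutrophil markers reached 14.7 CPM in WT day 0 replicate 1. Markers of stromal cells varied from 20.1 CPM to 4524 CPM between libraries, and within KO day 4 they were at 704 CPM and 20.1 CPM. The 13 protein-coding RNAs of the mitochondrial genome, given as a sign of RNA quality, held 1.55% to 2.87% of the counts. In WT this share was 1.67% and 2.21% at day 0, 2.17% and 2.14% at day 2, and 2.62% and 2.87% at day 4. In KO it was 1.91% and 1.85%, then 1.77% and 1.62%, and then 1.90% and 1.55%. The genotypes were thus apart at day 2 and at day 4. The part of this share in the results was not tested.

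Nearly the whole proteasome rose together between day 0 and day 4, in both genotypes. Summed over the 47 genes, TPM (relative transcript abundance, corrected for transcript length) was 4589 and 4766 in the WT libraries at day 0, 5772 and 5789 at day 2, and 10013 and 9919 at day 4. In KO it was 4994 and 5059 at day 0, 4922 and 4932 at day 2, and 10680 and 10463 at day 4. Thus every day 4 library lay above every earlier library, and the WT libraries of day 2 lay above those of day 0. In KO no common direction held from day 0 to day 2: the 20S core sums overlapped, at 2391 and 2265 TPM and then 2315 and 2272 TPM, the 19S sums were higher at day 2, at 1779 and 1716 TPM against 1663 and 1584 TPM, and the sum over all members includes Psme2, whose TPM is uncertain. These are levels in bulk RNA, in which a change in the make-up of the culture and a change in RNA per cell cannot be told apart. The osteoclast and macrophage marker sums moved over the same days, and their part in the rise was not tested.

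**Figure D1:**
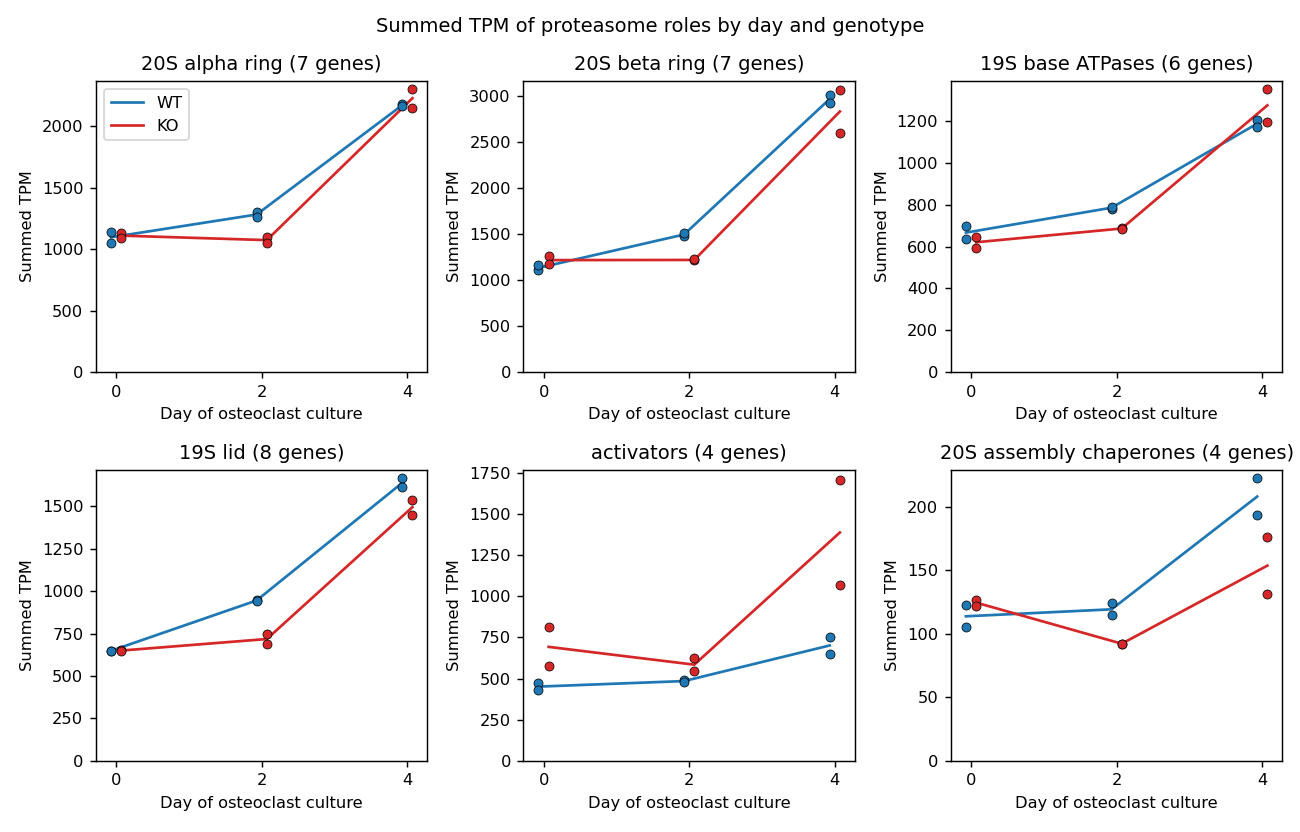
Summed TPM (vertical axes, starting at 0) of 6 groups of proteasome genes against the day of culture; each point is 1 library, lines join the means of the 2 libraries, blue is WT and red is KO. The beta ring reaches 3009 and 2928 TPM in WT and 3066 and 2600 TPM in KO at day 4, and at day 2 the KO points of the rings, the ATPases and the lid lie below the WT points, on a scale that shifts the median of all genes by -0.12 in that comparison; on counts the ATPases' median was -0.04.

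In the edgeR quasi-likelihood test, in which a gene was called at an adjusted p under 0.05 over all 12774 genes, 38 of 46 members were higher and 0 were lower in WT at day 4 than at day 0. Of all genes tested, 29.1% were called higher and 27.6% lower. The median log2 fold change was 0.85 over the members and -0.04 over all genes. In KO, 41 members were called higher and 1 lower, beside 23.3% and 21.3% of all genes, with medians of 0.92 and -0.06. All 38 genes that rose in WT also rose in KO. Psmc1, Psme2 and Psme2b were called in KO alone, but in this test the difference between the genotypes' changes was called for none of them. DESeq2 called that difference for Psmc1. A fit with the replicate number as a term within each genotype, chosen after seeing the data, called it for Psme2b. The WT and KO changes shared no library, and across the 46 members they correlated at r = 0.81, given as a description because genes are not independent replicates. The 46 include Psmc3ip, matched by name only, which had the largest change in WT (4.40) and in KO (2.45). Its weight in r was not tested. Without any single library of the comparison, 37 to 39 members were still called in WT and 36 to 40 in KO.

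**Figure D2:**
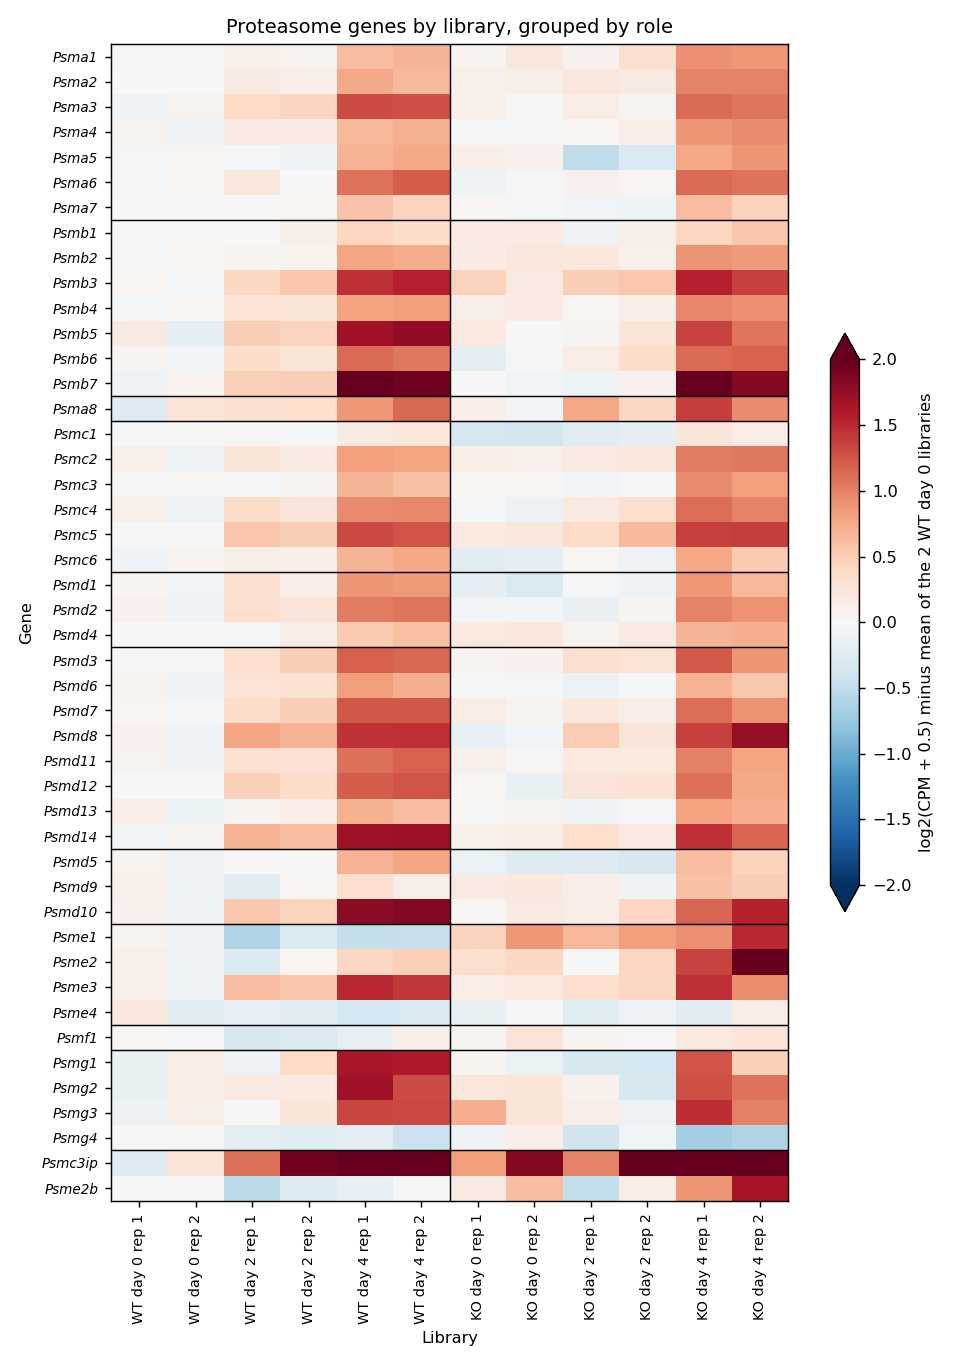
Level of the 46 tested genes (rows, grouped by role between the black lines) in the 12 libraries (columns, WT left and KO right), as log2(CPM + 0.5) minus the mean of the 2 WT day 0 libraries; the scale ends at -2 and 2. Nearly all rows are red at day 4 in both genotypes, and Psme1, Psme2b, Psme4, Psmf1 and Psmg4 are exceptions in WT.

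The beta ring, which carries the proteolytic sites, rose in full: 7 of 7 genes in each genotype, with median log2 fold changes of 1.10 in WT and 1.12 in KO from day 0 to day 4. Psmb7, the trypsin-like site, was at 67.5 and 74.3 CPM in WT at day 0, at 99.1 and 99.7 CPM at day 2, and at 295 and 274 CPM at day 4. In KO it was at 70.7 and 68.0 CPM, then at 66.2 and 75.1 CPM, and then at 336 and 254 CPM. The day 4 libraries stood far above all others in both genotypes. At day 2 both WT libraries were above those of day 0, a call that was lost in 8 of 12 alternatives, and the KO libraries overlapped those of day 0; the genotype-by-day difference for day 2 was not called. Its log2 fold change from day 0 to day 4 was 2.00 ± 0.14 in WT (SE, adjusted p = 1.5e-05), a 4.01-fold level, and 2.09 ± 0.14 in KO (adjusted p = 3.45e-05).

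Psmb5, the chymotrypsin-like site, was at 67.9 and 53.3 CPM in WT at day 0, at 84.4 and 82.0 CPM at day 2 and at 194 and 207 CPM at day 4. The KO libraries were at 68.7 and 60.5 CPM, 62.6 and 72.1 CPM, and 155 and 127 CPM on the same days. KO and WT overlapped at day 0, and both KO libraries were below both WT libraries at day 2 and at day 4. The rise by day 4 was 1.73 ± 0.15 on the log2 scale in WT (adjusted p = 3.72e-05) and 1.12 ± 0.15 in KO (adjusted p = 0.000579). Psmb6, the caspase-like site, went from 69.6 and 64.3 CPM to 148 and 139 CPM in WT and from 58.8 and 65.7 CPM to 148 and 152 CPM in KO. Its log2 fold change was 1.10 ± 0.11 in WT (adjusted p = 6.52e-05) and 1.26 ± 0.11 in KO (adjusted p = 9.30e-05), and at day 4 KO differed from WT by 0.06 ± 0.11 (adjusted p = 0.721).

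The ring genes did not rise by equal amounts. In WT at day 0 the beta ring genes lay within a 1.496-fold range of TPM, from 131 for Psmb3 to 196 for Psmb6. At day 4 the range was 2.49-fold, from 244 for Psmb1, a structural subunit, to 609 for Psmb5, with Psmb7 at 594. In KO at day 4 it was 2.48-fold, from 254 for Psmb1 to 631 for Psmb7, while Psmb5 was at 418. The smallest change in the ring was that of Psmb1, at 0.41 ± 0.10 in WT and 0.34 ± 0.10 in KO on the log2 scale.

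**Figure D3:**
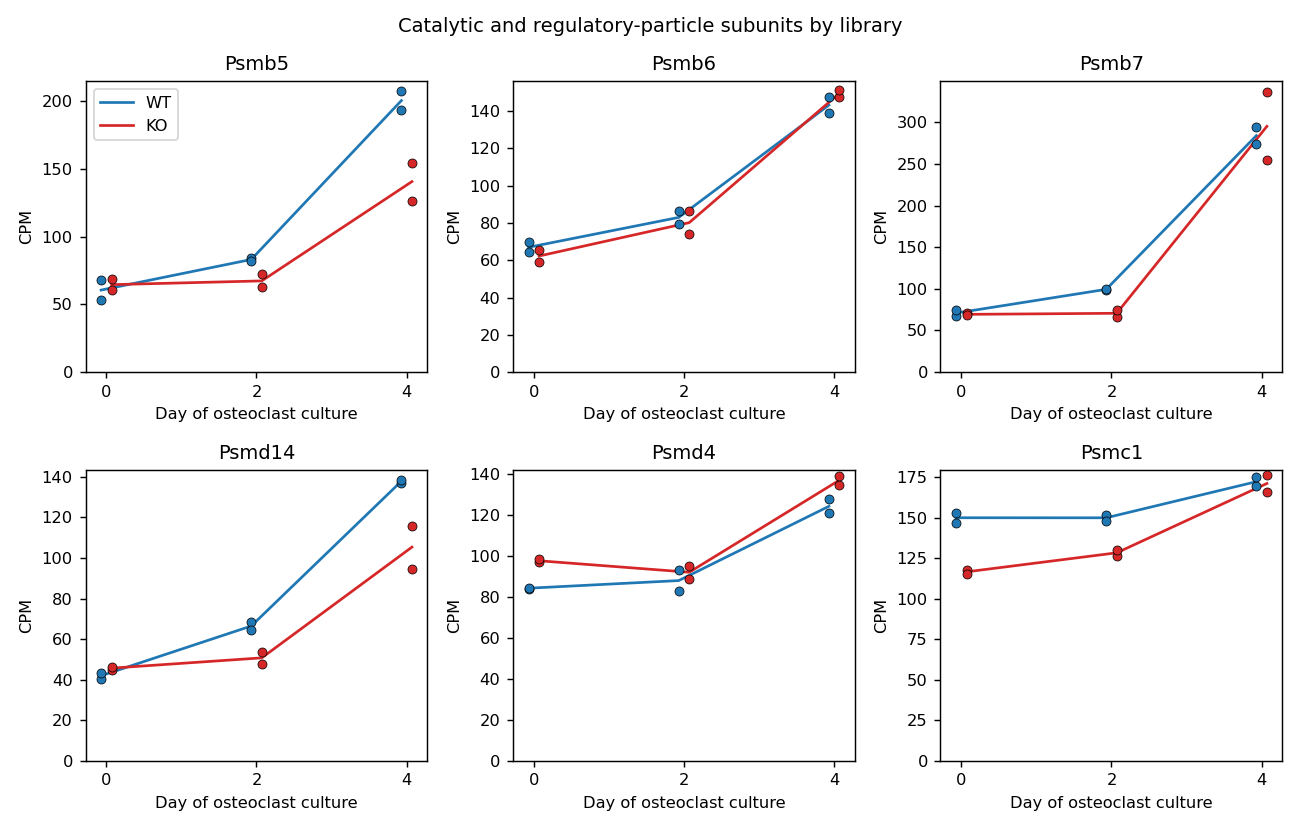
CPM (vertical axes, starting at 0) of the catalytic subunits Psmb5, Psmb6 and Psmb7 and of the regulatory-particle subunits Psmd14, Psmd4 and Psmc1 against the day of culture; each point is 1 library and lines join means, WT in blue and KO in red. At day 4 the KO points of Psmb5 (155 and 127 CPM) lie below the WT points (194 and 207 CPM), as do those of Psmd14, while those of Psmb7 lie on both sides of the WT points.

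Promoters of the catalytic genes Psmb5 and Psmb6 are shown for the sequence element described below. Psmb7, the other catalytic gene, has no entry in the promoter table used. Promoter sequence (250 bases before the annotated start to 50 after it, build GRCm38.p6, from RefSeq) was found for 39 of the 47 genes, as 42 entries, 3 genes having more than 1. The letters TGACNNNGC, the core of the antioxidant response element that the NRF transcription factors are known to bind, were searched on both strands and are in capitals here; positions count from 1 at the start base, and bases before it are negative. Psmb5 (chr14:54617946-54618245, minus strand) holds them at position -47 and Psmb6 (chr11:70525107-70525406, plus strand) at position -9, each printed in the direction of the gene.
Psmb5: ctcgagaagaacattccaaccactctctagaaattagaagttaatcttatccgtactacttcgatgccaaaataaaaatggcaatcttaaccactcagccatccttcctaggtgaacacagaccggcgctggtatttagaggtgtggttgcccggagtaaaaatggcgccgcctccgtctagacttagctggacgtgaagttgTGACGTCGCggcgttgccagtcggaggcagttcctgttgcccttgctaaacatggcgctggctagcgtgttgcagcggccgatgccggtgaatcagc
Psmb6: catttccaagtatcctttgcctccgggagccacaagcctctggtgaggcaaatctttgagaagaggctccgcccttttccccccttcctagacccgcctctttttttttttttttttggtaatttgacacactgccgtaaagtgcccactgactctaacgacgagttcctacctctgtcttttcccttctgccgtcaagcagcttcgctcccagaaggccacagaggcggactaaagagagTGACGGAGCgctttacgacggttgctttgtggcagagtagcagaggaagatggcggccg
The core was in 6 of the 39 genes, the others being Psmc6, Psmd9, Psmd12 and Psme4, and in 12.4% of the 32851 promoters in the table. By entry it was in 14.3% of the members' promoters and in 14.2% of those of tested genes, so the shares were close. Psmb3 and Psmb4, beta ring genes that also rose, had 0 matches. An AP-1 site, TGANTCA, was in 2 of the 39 genes, Psmb5 and Psmd9, and in 7.81% of all promoters. A match describes the letters and does not show that a factor binds there.

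All 7 alpha ring genes also rose by day 4, with a median log2 fold change of 0.71 in WT and 0.89 in KO. Psma3 had the largest WT change of the ring, a 2.46-fold rise, and Psma7 the smallest, 0.51 ± 0.09 on the log2 scale. By TPM, Psma2 was the lowest alpha gene in every group, at 53.4 in WT at day 0 and 97.0 at day 4, while Psma6 was the highest at day 4, at 476. Psma8, the testis form of an alpha subunit, stayed between 1.28 and 5.07 CPM in all libraries; it was called higher at day 4 in both genotypes, by 1.19 ± 0.38 in WT (adjusted p = 0.0253) and 1.35 ± 0.38 in KO (adjusted p = 0.0194), and the KO call was lost in 3 of the 4 fits without 1 library.

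In the 19S base, which unfolds the substrate, 5 of the 6 ATPase genes rose in WT and all 6 in KO. The exception in WT was Psmc1, at 147 and 153 CPM at day 0 and 169.6 and 175 CPM at day 4, a change of 0.20 ± 0.08 (adjusted p = 0.0694). In KO it started lower, at 118 and 115 CPM, and rose to 177 and 166 CPM, by 0.55 ± 0.08 (adjusted p = 0.00101). The difference of the changes was 0.35 ± 0.12 and was not called in the edgeR test (adjusted p = 0.0986), while DESeq2 called it. Psmc5 had the largest change of the ATPases in WT, a 2.46-fold rise. All 3 other base genes rose in both genotypes: the scaffolds Psmd1 and Psmd2 and the ubiquitin receptor Psmd4. Psmd4 was at 84.0 and 84.6 CPM in WT at day 0 and 121 and 128 CPM at day 4, and in KO at 97.1 and 98.4 CPM and then 135 and 139 CPM. This was a change of 0.56 ± 0.09 in WT (adjusted p = 0.000833) and 0.49 ± 0.09 in KO (adjusted p = 0.00287), below the members' median in both.

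The lid, which removes the ubiquitin chain, rose in 8 of 8 genes in each genotype, with a median of 1.21 in WT and 0.95 in KO. Its deubiquitinase, Psmd14, was at 40.4 and 43.5 CPM in WT at day 0, 68.5 and 64.4 CPM at day 2, and 137 and 139 CPM at day 4. In KO it was at 45.0 and 46.4 CPM, 53.8 and 47.7 CPM, and 116 and 94.8 CPM. WT rose stepwise over both intervals, and the KO libraries lay below the WT libraries at day 2 and day 4. The change by day 4 was 1.72 ± 0.12 in WT (adjusted p = 1.31e-05) and 1.21 ± 0.12 in KO (adjusted p = 0.000140). Psmd8, another lid subunit, had the highest TPM of the lid in all 6 groups and rose by 1.45 ± 0.15 in WT and 1.67 ± 0.15 in KO.

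The Psmd14 promoter (chr2:61711444-61711743, plus strand, GRCm38.p6, RefSeq) is shown for its CCAAT boxes, a common promoter element; the letters CCAAT on either strand are in capitals, with matches at positions -159, 5 and 8, the last 2 overlapping.
Psmd14: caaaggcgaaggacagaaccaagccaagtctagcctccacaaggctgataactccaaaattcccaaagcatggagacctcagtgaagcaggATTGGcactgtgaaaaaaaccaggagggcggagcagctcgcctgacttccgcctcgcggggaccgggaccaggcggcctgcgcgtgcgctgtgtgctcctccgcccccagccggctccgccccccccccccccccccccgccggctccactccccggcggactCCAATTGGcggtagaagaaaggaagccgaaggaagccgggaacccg
CCAAT was in 14 of the 39 genes and in 37.4% of all promoters, a share close to that of the members.

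Assembly chaperones did not move as a block. Of those of the 19S base, Psmd10 (gankyrin) rose from 28.9 and 25.5 CPM to 95.4 and 98.3 CPM in WT, by 1.83 ± 0.16 (adjusted p = 3.47e-05), and from 27.4 and 30.8 CPM to 61.7 and 79.9 CPM in KO, by 1.28 ± 0.16. Psmd5 rose in both, by 0.75 ± 0.11 and 0.74 ± 0.11, and Psmd9 was called in neither, at 0.23 ± 0.15 and 0.35 ± 0.15. Of the 20S chaperones, the partners Psmg1 and Psmg2 rose by 1.67 ± 0.28 and 1.55 ± 0.21 in WT and by 0.99 ± 0.28 and 0.98 ± 0.21 in KO. Psmg3 rose by 1.41 ± 0.26 in WT and 0.80 ± 0.25 in KO. Psmg4, the partner of Psmg3, was the sole member called lower in any day 4 against day 0 comparison: it was at 10.3 and 11.97 CPM in KO at day 0 and 6.55 and 6.99 CPM at day 4, a change of -0.71 ± 0.19 (adjusted p = 0.0154). In WT its value was -0.32 ± 0.19 (adjusted p = 0.179). The KO call was lost in 3 of 12 alternatives, among them the fits without KO day 0 replicate 2 or KO day 4 replicate 1.

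Psmc3ip, which shares the naming pattern but encodes the recombination cofactor HOP2, was at 0.233 and 0.552 CPM in WT at day 0 and at 9.52 and 7.38 CPM at day 4. It rose by 4.40 ± 0.74 in WT (adjusted p = 0.000945) and by 2.45 ± 0.64 in KO (adjusted p = 0.0141). It had the largest fold change of the 46 genes in either genotype, from a level near the limit of counting, and the KO call was lost without KO day 0 replicate 1 (adjusted p = 0.0954).

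**Figure D4:**
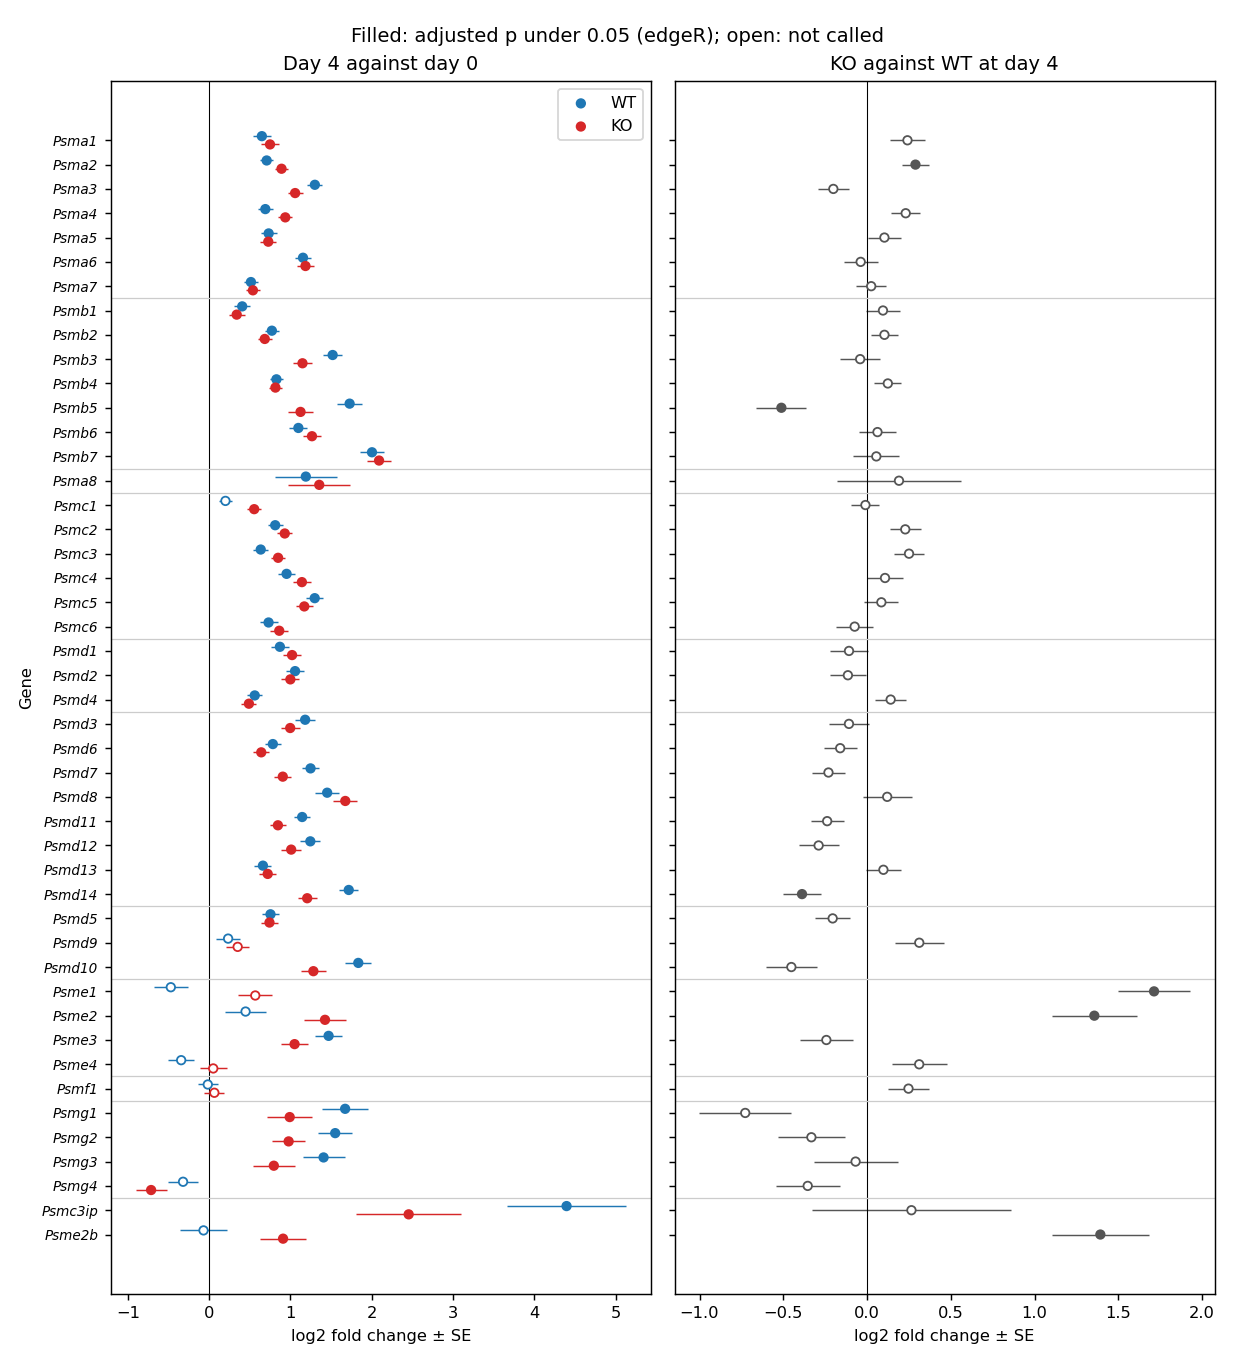
Log2 fold change ± SE (horizontal axes) of the 46 genes, grouped by role, for day 4 against day 0 in WT (blue) and KO (red) on the left and for KO against WT at day 4 on the right; filled points were called at an adjusted p under 0.05 and open points were not. On the left nearly all filled points lie to the right of 0, and on the right 4 filled points lie above 0 and 2, Psmb5 and Psmd14, below.

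The timing differed between the genotypes in the values, though not by the test of the difference. By day 2, 10 members had risen in WT, where 8.06% of all genes were called higher and 9.25% lower: Psma3, Psmb3, Psmb7, Psmc5, Psmd3, Psmd7, Psmd8, Psmd12, Psmd14 and Psme3. Of these, 5 are among the 8 lid genes. The largest changes were those of Psmd8, 0.74 ± 0.15 (adjusted p = 0.0131), and Psmd14, 0.66 ± 0.12 (adjusted p = 0.00891). The median was 0.19 over the members and 0.00 over all genes. This count rested on single libraries: it was 2, 3, 0 and 1 without WT day 0 replicate 1, WT day 0 replicate 2, WT day 2 replicate 1 and WT day 2 replicate 2, and 19 with DESeq2.

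In KO, 0 members were called higher at day 2 and 1 was lower, beside 3.01% and 1.73% of all genes, with a median of 0.06 over the members. That gene was Psma5, at 87.8 and 85.1 CPM at day 0 and 56.0 and 64.5 CPM at day 2, a change of -0.52 ± 0.10 (adjusted p = 0.0232); the call was lost without any 1 of the 4 libraries. Psma5 then rose by 1.25 ± 0.10 from day 2 to day 4. An unadjusted p under 0.05 was reached by 6 members, and DESeq2 called 4 higher (Psmb6, Psmc4, Psmc5 and Psmd8) and Psma5 lower. The genotype-by-day interaction, which tests whether the KO change by day 2 differs from the WT change, was called for 0 members and for 0.00783% of all genes; 7 members had an unadjusted p under 0.05, and DESeq2 called 0.

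Most of the rise took place between day 2 and day 4. In WT 37 members were called higher and 0 lower, beside 27.4% and 24.4% of all genes, with a median of 0.71. In KO 41 were higher and 0 lower, beside 22.1% and 20.6%, with a median of 0.84. Psmb7 rose by 1.51 ± 0.14 in WT (adjusted p = 9.34e-05) and by 2.06 ± 0.14 in KO (adjusted p = 4.77e-05) over this interval.

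The genotypes were then compared on each day. At day 0, 0 of 46 members differed in the edgeR test, where 0.767% of all genes were higher and 0.814% lower in KO. The medians were 0.08 over the members and 0.03 over all genes. An unadjusted p under 0.05 was reached by 7 members, and DESeq2 called 1, Psmc1, lower in KO. In the edgeR test Psmc1 had a log2 fold change of -0.36 ± 0.08 (adjusted p = 0.0782), with both KO libraries below both WT libraries.

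At day 2, 1 member was called higher in KO and 0 lower, beside 3.09% and 1.42% of all genes, and the median was -0.10 over the members. Both KO libraries were below both WT libraries for 24 of the 46 members, including all 8 lid genes, and for 31.0% of all genes. None of the 8 lid genes was called by edgeR; Psmd14 was at -0.39 ± 0.12 (adjusted p = 0.0927) and Psmd6 at -0.36 ± 0.10 (adjusted p = 0.0792). DESeq2 called 7 members lower in KO on that day: Psma3, Psma5, Psmb7, Psmc1, Psmd2, Psmd6 and Psmd14. Summed TPM of the lid at day 2 was 949 and 939.99 in WT against 749 and 687 in KO. On the TPM scale the median of all genes was itself shifted, by -0.12. On counts the median log2 fold change of the lid genes was -0.21.

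At day 4, 4 members were higher and 2 lower in KO, beside 14.5% and 11.1% of all genes. The median was 0.06 over the members, or -0.06 without KO day 4 replicate 1, and -0.03 over all genes. Psmb5 was 0.702 times its WT level, a log2 fold change of -0.51 ± 0.15 (adjusted p = 0.0361), and Psmd14 was 0.764 times its WT level, -0.39 ± 0.12 (adjusted p = 0.0394). Both KO libraries of each lay below both WT libraries. Psma2 was higher in KO, at 164 CPM in both libraries against 139.7 and 129 CPM, by 0.29 ± 0.08 (adjusted p = 0.0327). These 3 calls were lost without WT day 4 replicate 1, WT day 4 replicate 2 or KO day 4 replicate 2. Over all 11 alternatives, the calls of Psmd14 and Psma2 were lost in 6 each and that of Psmb5 in 4. The genotype-by-day interaction for day 4 was -0.60 ± 0.21 for Psmb5 (adjusted p = 0.112) and -0.51 ± 0.16 for Psmd14 (adjusted p = 0.0892), and was called for 0 of 46 members and for 8.56% of all genes. An unadjusted p under 0.05 was reached by 8 members, and DESeq2 called Psme1 and Psmc1.

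The KO libraries of day 4 differed from each other, and this touches the count. Without KO day 4 replicate 1, the library with the higher osteoclast marker sum, 11 members were called, 4 higher and 7 lower in KO, and the genotype-by-day interaction for day 4 was called for 8. The 7 lower genes were Psmb5, Psmd7, Psmd11, Psmd12, Psmd14, Psme3 and Psmg1. Without WT day 4 replicate 1, WT day 4 replicate 2 or KO day 4 replicate 2, the count was 2, 1 and 3. With the 4 libraries of day 4 fitted alone it was 0.

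The largest difference between the genotypes at day 4 was in an activator. Psme1, which encodes the alpha subunit of the interferon-inducible 11S cap, was at 92.3 and 83.6 CPM in WT at day 0, 57.9 and 71.7 CPM at day 2, and 63.0 and 63.7 CPM at day 4. In KO it was at 121 and 160.1 CPM, 139 and 158 CPM, and 166 and 249.6 CPM. On each day both KO libraries lay above both WT libraries. KO exceeded WT by 0.67 ± 0.21 on the log2 scale at day 0, which was not called (adjusted p = 0.176). The difference was called at day 2, at 1.20 ± 0.21 (adjusted p = 0.0256), and at day 4, at 1.71 ± 0.21 (adjusted p = 0.00138), a 3.28-fold level. The interaction for day 4 was 1.04 ± 0.30 (adjusted p = 0.0643). The day 2 call was lost without any 1 of its 4 libraries (adjusted p from 0.0615 to 0.198). The day 4 call was lost when the 4 libraries were fitted alone (adjusted p = 0.0634) and held without any single library.

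Over time, Psme1 was among the 5 members called higher by day 4 in neither genotype, with Psmd9, Psme4, Psmf1 and Psmg4. In WT it had a value of -0.47 ± 0.21 at day 4 against day 0 (adjusted p = 0.0846), and in KO a value of 0.57 ± 0.21 (adjusted p = 0.0543). Relative to the mean TPM of the 7 alpha ring genes, Psme1 TPM was 1.12 and 0.975 in WT at day 0 and 0.424 and 0.416 at day 4. In KO the ratio was 1.45 and 1.87 at day 0 and 1.06 and 1.66 at day 4, and on each day both KO libraries were above both WT libraries.

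Psme2, the beta subunit of the same cap, was at 83.0 and 72.0 CPM in WT at day 0, 63.1 and 79.4 CPM at day 2, and 103 and 108 CPM at day 4. In KO it was at 98.3 and 103 CPM, 77.7 and 105 CPM, and 198 and 344 CPM. Both KO libraries were above both WT libraries at days 0 and 4, and the genotypes overlapped at day 2. At day 4 the log2 fold change was 1.36 ± 0.25 (adjusted p = 0.00643). From day 0 to day 4 it rose by 1.42 ± 0.25 in KO (adjusted p = 0.00229), and the WT value was 0.45 ± 0.25 (adjusted p = 0.159). The call at day 4 was lost without WT day 4 replicate 2 (adjusted p = 0.0511), on log2(TPM + 1) with limma (adjusted p = 0.0830) and with the 4 libraries alone (adjusted p = 0.0842). Psme2b, a near-identical copy, was at 35.1 and 39.7 CPM in WT and 73.0 and 123 CPM in KO at day 4, higher by 1.39 ± 0.29 (adjusted p = 0.0103). That call was lost without WT day 4 replicate 1 (adjusted p = 0.0712), WT day 4 replicate 2 (adjusted p = 0.0608) or KO day 4 replicate 2 (adjusted p = 0.0528). Counting can split reads between Psme2 and Psme2b, so the level of each is uncertain. By TPM, Psme2 was at 228 and 403 in the 2 KO libraries of day 0 although their CPM was 98.3 and 103, so its TPM depended on how transcripts of different length were assigned.

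**Figure D5:**
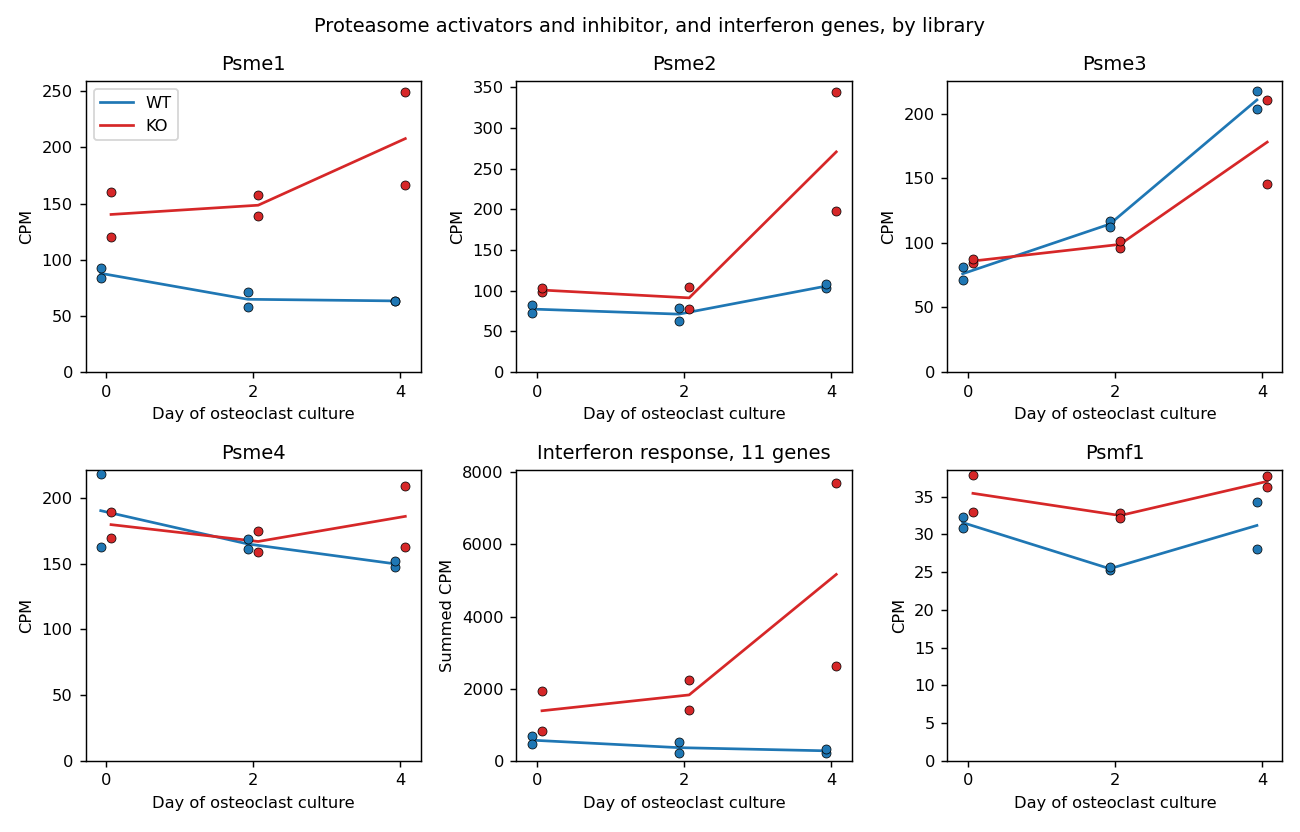
CPM (vertical axes, starting at 0) of the activators Psme1, Psme2, Psme3 and Psme4 and the inhibitor Psmf1, and summed CPM of 11 interferon-response genes, against the day of culture; each point is 1 library and lines join means, WT in blue and KO in red. Psme1 and Psme2 are highest in KO at day 4, where replicate 2 (249.6 and 344 CPM) exceeds replicate 1, as it does for the interferon genes (7696 against 2639.8 CPM).

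Interferon-response genes were also higher in KO at day 4. Their list, Irf1, Irf7, Irf9, Isg15, Ifit1, Ifit2, Ifit3, Rsad2, Oasl2, Usp18 and Mx1, summed to 685 and 459 CPM in WT at day 0, 210.3 and 519 CPM at day 2, and 217 and 337 CPM at day 4. In KO the sums were 833 and 1942 CPM, 1412 and 2241 CPM, and 2639.8 and 7696 CPM. Of the 11 genes, 0 were called higher in KO at day 0, 2 at day 2 and 11 at day 4, where 0.767%, 3.09% and 14.5% of all genes were. The genotype-by-day interaction was called for 0 of the 11 for day 2 and for 0 for day 4, beside 0.00783% and 8.56% of all genes. In WT the sum was lower at day 4 than at day 0 in the mean of the libraries, and so was Psme1. Psme2 was at 103 and 108 CPM at day 4 against 83.0 and 72.0 CPM at day 0. Neither gene's WT change was called. In KO, replicate 2 was the higher library on each day for these sums and for Psme1 and Psme2; the part of this list in the Psme1 and Psme2 results was not tested.

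The Psme1 promoter (chr14:55578244-55578543, plus strand, GRCm38.p6, RefSeq) is shown for its interferon-stimulated response element core (GAAA, any 2 bases, GAAA), searched on both strands. The match is on the minus strand at position 10, so that the capitals show its reverse complement.
Psme1: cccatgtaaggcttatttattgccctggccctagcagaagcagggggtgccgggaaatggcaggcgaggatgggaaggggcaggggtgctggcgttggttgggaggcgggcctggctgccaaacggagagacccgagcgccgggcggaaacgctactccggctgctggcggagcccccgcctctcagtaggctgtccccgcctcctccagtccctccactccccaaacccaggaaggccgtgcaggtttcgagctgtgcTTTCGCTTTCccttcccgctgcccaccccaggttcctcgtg
The core was in 5 of the 39 genes with a promoter, Psmb3, Psmd4, Psmd9, Psme1 and Psmg4, and in 3.44% of all promoters. Of these, Psme1 alone was called higher in KO at day 4. The other members called higher in KO on that day, Psma2, Psme2 and Psme2b, had 0 matches. In the RefSeq gene order Psme1 and Psme2 lie on chromosome 14 with only Emc9 between them, followed by Rnf31 and Irf9.

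The other activators behaved differently from this pair. Psme3, which encodes the nuclear activator PA28 gamma, was at 81.2 and 70.9 CPM in WT at day 0, 117 and 112 CPM at day 2, and 218 and 203 CPM at day 4. In KO it was at 84.5 and 87.4 CPM, 96.2 and 101 CPM, and 210.5 and 145 CPM. It rose with the core by day 4, by 1.47 ± 0.16 in WT (adjusted p = 0.000105) and 1.05 ± 0.16 in KO (adjusted p = 0.00109), and the genotypes overlapped at day 4. Psme4 (PA200), a cap linked to DNA repair and histone degradation, was at 218 and 163 CPM in WT at day 0 and 148 and 152 CPM at day 4, a value of -0.34 ± 0.16 (adjusted p = 0.102). It was called in 0 of the 9 comparisons of groups. The ratio of Psme3 to Psme1 TPM was 0.314 and 0.302 in WT at day 0 and 1.23 and 1.16 at day 4, and in KO 0.244 and 0.195 at day 0 and 0.477 and 0.202 at day 4. The inhibitor Psmf1 (PI31) stayed between 25.2 and 37.9 CPM in all libraries and was also called in 0 comparisons, with -0.02 ± 0.12 at day 4 against day 0 in WT (adjusted p = 0.912) and 0.06 ± 0.12 in KO (adjusted p = 0.695).

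Outside the named genes, 30 further genes of the proteasome and ubiquitin pathway were examined, all of them tested. By day 4, 17 were higher and 3 lower in WT, and 17 higher and 2 lower in KO, with medians of 0.46 and 0.40. Over all genes the shares were 29.1% and 27.6% in WT and 23.3% and 21.3% in KO, and the medians -0.04 and -0.06. Usp14, a deubiquitinase that docks on the 19S particle, was at 61.4 and 66.8 CPM in WT at day 0 and 215 and 204 CPM at day 4, a rise of 1.71 ± 0.15 (adjusted p = 3.81e-05), and rose by 1.47 ± 0.15 in KO (adjusted p = 0.000177). Txnl1, a thioredoxin bound to the 19S particle, rose by 1.34 ± 0.12 in WT and 0.88 ± 0.12 in KO, and Ubqln1, which shuttles ubiquitinated proteins to the proteasome, by 0.99 ± 0.09 and 0.55 ± 0.09. Zfand5, a ubiquitin-binding protein that activates the proteasome, was at its highest level at day 2. In WT it was at 101 and 85.7 CPM at day 0, 471 and 415 CPM at day 2 and 304 and 349 CPM at day 4. In KO it was at 114 and 102 CPM, 347 and 479 CPM, and 229 and 221 CPM. Its rise by day 2 was 2.24 ± 0.18 in WT (adjusted p = 0.000355) and 1.93 ± 0.17 in KO (adjusted p = 0.000622). From day 2 to day 4 its change was -0.44 ± 0.17 in WT, which was not called (adjusted p = 0.0546). In KO that change was -0.88 ± 0.17 (adjusted p = 0.00369).

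The 3 lower genes in WT at day 4, named after their values were seen, were Nfe2l2, Ddi2 and Ubb; Nfe2l2 and Ddi2 were also the 2 lower ones in KO. Nfe2l2 encodes NRF2, the oxidative-stress factor, and Ddi2 encodes the protease that processes NRF1, a factor known to drive proteasome genes. Nfe2l1, which encodes NRF1, rose by 0.80 ± 0.10 in WT (adjusted p = 0.000176) and 0.54 ± 0.10 in KO (adjusted p = 0.00253). Nfe2l2 went from 288 and 226 CPM at day 0 to 68.4 and 66.2 CPM at day 4 in WT, and from 274 and 281 CPM to 125 and 188 CPM in KO. In KO against WT it was higher by 1.02 ± 0.19 at day 2 (adjusted p = 0.0285) and 1.22 ± 0.19 at day 4 (adjusted p = 0.00308), and its interaction for day 4 was called, at 1.10 ± 0.27 (adjusted p = 0.0397). At day 4 the polyubiquitin gene Ubb was also higher in KO, by 0.69 ± 0.12 (adjusted p = 0.00528). Akirin2, which carries proteasomes into the nucleus, was at 30.1 and 28.1 CPM in KO and 41.3 and 42.3 CPM in WT, lower by -0.52 ± 0.12 (adjusted p = 0.0163). In all, 2 of the 30 genes were higher and 5 lower in KO at day 4, beside the 14.5% and 11.1% over all genes.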

How the data were processed

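RNA-seq libraries of 2 genotypes at 3 days were used, 12 of the 37 samples; the 12 ATAC-seq and 13 CUT&Tag samples were not used here. Groups, days and replicate numbers came from the labels. The count table deposited by the authors holds expected counts per gene as whole numbers, and the TPM table deposited by the authors holds their TPM. The submitters' processing notes name STAR 2.7.3a, RSEM 1.3.1, Trim Galore 0.6.1 and DESeq2, and the builds mm9 and mm10, without roles; gene models and strand setting are not given in the sources used here. RSEM shares reads between similar genes.

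A single model of all 12 libraries, with a mean for each group, was built in edgeR 4.0.16 (R 4.3.3). It used TMM scaling, genes kept by filterByExpr at a minimum count of 10, and the two-sided quasi-likelihood F test with robust settings. Benjamini-Hochberg adjustment ran over the 12774 genes tested in each comparison, and calls had an adjusted p under 0.05. Each SE is the size of the log2 fold change over the root of its F. The common coefficient of biological variation came to 0.261, with a median of 2.66 prior degrees of freedom. The procedure was tested on simulated data. Comparisons were KO against WT on each day, each pair of days within a genotype, and the genotype-by-day interaction for days 2 and 4 relative to day 0. Alternatives were DESeq2 size factors, no low-count filter, a floor of 5 CPM reached by 2 libraries, limma 3.58.1 on log2(TPM + 1), Wald tests in DESeq2 1.42.0, the compared groups fitted alone, replicate blocks, and each library left out in turn.

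The members, gene lists, named genes and tests were chosen with earlier results of these data known. Named with full values were the catalytic subunits, activators, inhibitor, Psmd4, Psmd14 and up to 5 called members with the largest rise or fall per comparison. Of the wider pathway, up to 4 called genes per comparison could be named. Other members are given by role. Outside this rule, values are also given for some members, among them Psmc1, Psmd5, Psmd6, Psmd9 and Psmg3, and for Nfe2l1 of the wider pathway. A few genes of the accompanying lists are not reported here and enter none of the lists' sums or counts.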

Additional observations from a re-analysis of the deposited data

How the results depend on the processing

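The day 4 against day 0 and day 4 against day 2 counts held within 1.5 times under every alternative: from 37 to 40 members were called in WT and from 36 to 45 in KO for day 4 against day 0, and from 35 to 39 and from 32 to 43 for day 4 against day 2. The day 2 and genotype counts depended more on the setting. DESeq2 called 1 member for KO against WT at day 0, 8 at day 2, 19 for WT day 2 against day 0, 5 for KO day 2 against day 0 and 2 for the genotype-by-day interaction for day 4. Limma on log2(TPM + 1) called 3 for KO against WT at day 2 and 2 for KO day 2 against day 0, and this scaling shifted the median of all genes by 0.10 in WT day 2 against day 0 and by -0.12 in KO against WT at day 2. At least 5 CPM in 2 libraries gave 2 for KO against WT at day 2 and 19 for WT day 2 against day 0, with fewer genes tested. With the compared groups alone, fewer libraries gave 2 for KO against WT at day 2, 0 at day 4, 4 for WT day 2 against day 0 and 0 for KO day 2 against day 0.

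With 1 library left out, counts ranged from 0 to 0 for KO against WT at days 0 and 2, from 1 to 11 at day 4, from 0 to 3 for WT day 2 against day 0, from 0 to 0 for KO day 2 against day 0, from 0 to 0 for the interaction at day 2 and from 0 to 8 for that at day 4; a group left with 1 library took its spread from the others. No named gene's fold change reversed, but the balance of higher and lower calls turned in some counts. In KO against WT, calls were mostly higher in the main fit. They were mostly lower at day 2 with DESeq2 and at day 4 without KO day 4 replicate 1. In KO day 2 against day 0, DESeq2 calls were mostly higher, unlike the main fit. Besides, 3 small medians of the members changed sign. That of KO against WT at day 4 went from 0.06 to -0.06 without KO day 4 replicate 1. That of KO day 2 against day 0 went from 0.06 to -0.03 without KO day 2 replicate 2. That of the interaction for day 4 went from -0.01 to at most 0.06 in 5 alternatives. Of the named genes' calls, 161 held and 47 were lost with a library left out, and 385 held and 23 were lost under other settings; of the members' medians, 13 and 18 moved by more than the spread between replicates.

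Replicate numbers could not be taken as pairs, since the labels do not say what they mark and there are only 2 of them. As a hint from the data, the differences between replicates 1 and 2 correlated across genes within WT (r from 0.11 to 0.30) and within KO (0.43 to 0.60), and between the genotypes at -0.36, -0.09 and -0.06 on days 0, 2 and 4. With the replicate block the interaction for day 4 was called for 1 member, Psme1, and with a replicate block within each genotype, chosen after seeing the data, for 3 (Psme1, Psme2b and Psmd10); the latter also gave 2 for KO day 2 against day 0. A block crossed between genotypes at day 0, also chosen after seeing the data, called 0. With 2 libraries a group, the spread behind each value is known poorly; the cause of the shifts was not tested.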
